A study of Mus musculus with 16 samples.

Results

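The genes described here are 10 immediate early genes: the AP-1 genes Fos, Fosb, Fosl1, Fosl2, Jun, Junb and Jund, the zinc finger factor gene Egr1, and the early response genes Ier2 and Ier3. They were chosen by name from the 24019 genes of the count table, and all 10 were present. RNA came from snap-frozen mouse pancreas, with 4 libraries in each of 4 groups, each titled as a replicate. The titles do not state that each library is a separate animal, so the p-values measure the spread between these libraries. The wild type (WT) groups were C57BL/6J and the mutant groups were homozygous for Adam17ex, a hypomorphic allele of the sheddase gene Adam17, meaning one of reduced function rather than a deletion. The labels name no promoter or cell type that restricts the allele. WT and Adam17ex mice were littermates aged 6 to 8 weeks. One group of each genotype received cerulein, a cholecystokinin analogue that overstimulates acinar cells and causes acute pancreatitis, at 50 µg per kg in 7 hourly intraperitoneal injections. The other group of each genotype received 50 µl of phosphate-buffered saline (PBS) by the same schedule, and all mice were culled 1 h after the last injection. There were 0 males in WT PBS, 1 in WT cerulein and 2 in each Adam17ex group.

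Immediate early genes are transcribed within minutes of a signal, without new protein synthesis, when MAP kinases, calcium and serum response factor act on factors already bound at their promoters. FOS and JUN proteins pair through leucine zippers to form AP-1, which binds DNA at the motif TGACTCA and is known for driving stress, growth and injury responses in epithelia, the pancreas included. The messages are short-lived, so their level at 1 time is a snapshot, and here that time followed a series of injections rather than a single one. The cerulein comparisons ask which of the genes stood higher in the injured pancreas. The genotype comparisons ask whether levels differed between Adam17ex and WT under the same treatment. Whether the cerulein response itself differed between genotypes is asked by the interaction.

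By the coordinates in the deposited table (GRCm38), Fos lies at chr12:85473890-85477273 on the plus strand, Fosb at chr7:19302696-19310051 (minus), Fosl1 at chr19:5447547-5455946 (plus) and Fosl2 at chr5:32135801-32157842 (plus). Jun lies at chr4:95049034-95052222 (minus), Junb at chr8:84976910-84978718 (minus) and Jund at chr8:70698949-70700616 (plus). Ier2 lies at chr8:84661331-84662854 (minus) and Ier3 at chr17:35821684-35822923 (plus). In GENCODE M21 Jun, Jund and Ier2 each have 1 transcript made of a single exon.

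Promoter sequence is shown for Jun, Junb and Ier3, 3 of the 4 tested members with the largest WT response, and for Fos and Fosl2, to give a view of the DNA just before their start sites. RefSeq windows on GRCm38.p6 existed for 7 of the 10 members (Fos, Fosb, Fosl2, Jun, Junb, Jund and Ier3). The stretches below end at the base before the RefSeq start and hold 120 bases each, 5′ to 3′ on the gene's strand, with capitals for a match to a searched motif. They lie at chr12:85473770-85473889 (plus strand), chr5:32136352-32136471 (plus), chr4:95052223-95052342 (minus), chr8:84978749-84978868 (minus) and chr17:35821593-35821712 (plus), in the order printed.
Fos: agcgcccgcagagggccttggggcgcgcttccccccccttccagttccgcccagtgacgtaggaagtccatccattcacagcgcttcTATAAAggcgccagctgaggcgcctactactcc
Fosl2: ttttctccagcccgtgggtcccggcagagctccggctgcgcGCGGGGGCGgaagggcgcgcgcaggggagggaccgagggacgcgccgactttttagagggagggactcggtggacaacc
Jun: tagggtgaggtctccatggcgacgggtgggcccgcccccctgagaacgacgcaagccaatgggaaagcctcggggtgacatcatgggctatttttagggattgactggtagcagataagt
Junb: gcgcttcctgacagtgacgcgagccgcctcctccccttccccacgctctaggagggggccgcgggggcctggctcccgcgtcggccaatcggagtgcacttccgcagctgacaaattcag
Ier3: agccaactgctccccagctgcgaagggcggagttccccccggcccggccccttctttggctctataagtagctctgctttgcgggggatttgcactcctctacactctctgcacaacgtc

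Both strands of windows from 250 bases before to 50 bases after the start were searched for 6 motifs. The TATA motif TATAAA, the site of basal transcription factor binding, was found in Fos, 33 to 28 bases before the start, and in Junb from base 1 after the start. It occurred in 13.6% of the 32851 windows in the table. The EGR motif GCGGGGGCG, the kind of site that EGR1 binds, was found in Fosl2, 79 to 71 bases before the start, and in Fosb, 50 to 42 bases before it, against 2.91% of all windows. The AP-1 motif TGACTCA (5.2% of windows), the cyclic AMP response motif TGACGTCA (1.79%), the CArG box of serum response factor (1.63%) and the EGR motif GCGTGGGCG (0.612%) had 0 matches in the 7 members. A match describes letters only, and sites with other spellings or outside these windows were not searched. Of the 7 members with a window, only Fos and Jun had the RefSeq start at the gene start given above. The bases before the RefSeq start end at chr8:70697738 for Jund and chr8:84978749 for Junb, both upstream of the gene. They end inside the gene at chr5:32136471 for Fosl2, chr17:35821712 for Ier3 and chr7:19310046 for Fosb. Motif positions count from the RefSeq start, so the TATAAA of Junb lies upstream of the gene start given above.

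Each value below is a count of unique molecular identifiers (UMIs, 1 per captured RNA molecule) scaled by library size to CPM with TMM factors, so 1 UMI was worth 0.681 to 2.60 CPM depending on the library. Libraries held 455547 to 1476159 UMIs, and the 3 shallowest were Adam17ex PBS replicates 1 to 3, at 455547 to 492878. Acinar markers were the most abundant of the 10 marker lists in all 16 libraries, at 144800 to 308000 summed CPM. Adam17 itself ranged from 5.25 to 14.1 CPM in WT PBS, 11.1 to 19.3 in WT cerulein, 2.58 to 6.03 in Adam17ex PBS and 2.40 to 4.09 in Adam17ex cerulein. It was lower in Adam17ex under cerulein (-2.05 ± 0.40 on the log2 scale), though reads from the 3′ end need not cover the part of the gene that the allele changes. Since this is bulk RNA, fewer cells of a type and less RNA per cell cannot be told apart. Differences are log2 fold changes ± SE from edgeR's quasi-likelihood fit over all 16 libraries with sex as a covariate. The SE was derived as the absolute log2 fold change divided by the square root of the F statistic. It is therefore approximate, above all at low counts or near 0. A gene was called when its Benjamini-Hochberg adjusted p over all 8236 tested genes was below 0.05. A count filter left 8 of the 10 members testable. Fosb (2 counts in all) and Fosl1 (0 to 13 counts per library) did not pass it. Fos, with 0 to 29 counts per library, passed only through Adam17ex libraries, those of cerulein replicates 1, 3 and 4 and PBS replicate 3. Its differences that involve an Adam17ex group are therefore descriptions, and the counts of members are also given without it. Egr1, Ier3 and Fosl2 had too few PBS libraries at the filter's level to pass without cerulein libraries. Fosl2 also had too few WT libraries at that level to pass without Adam17ex libraries. The cerulein calls for these genes carry that limit, and the counts without Fos still include them.

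**Figure D1:**
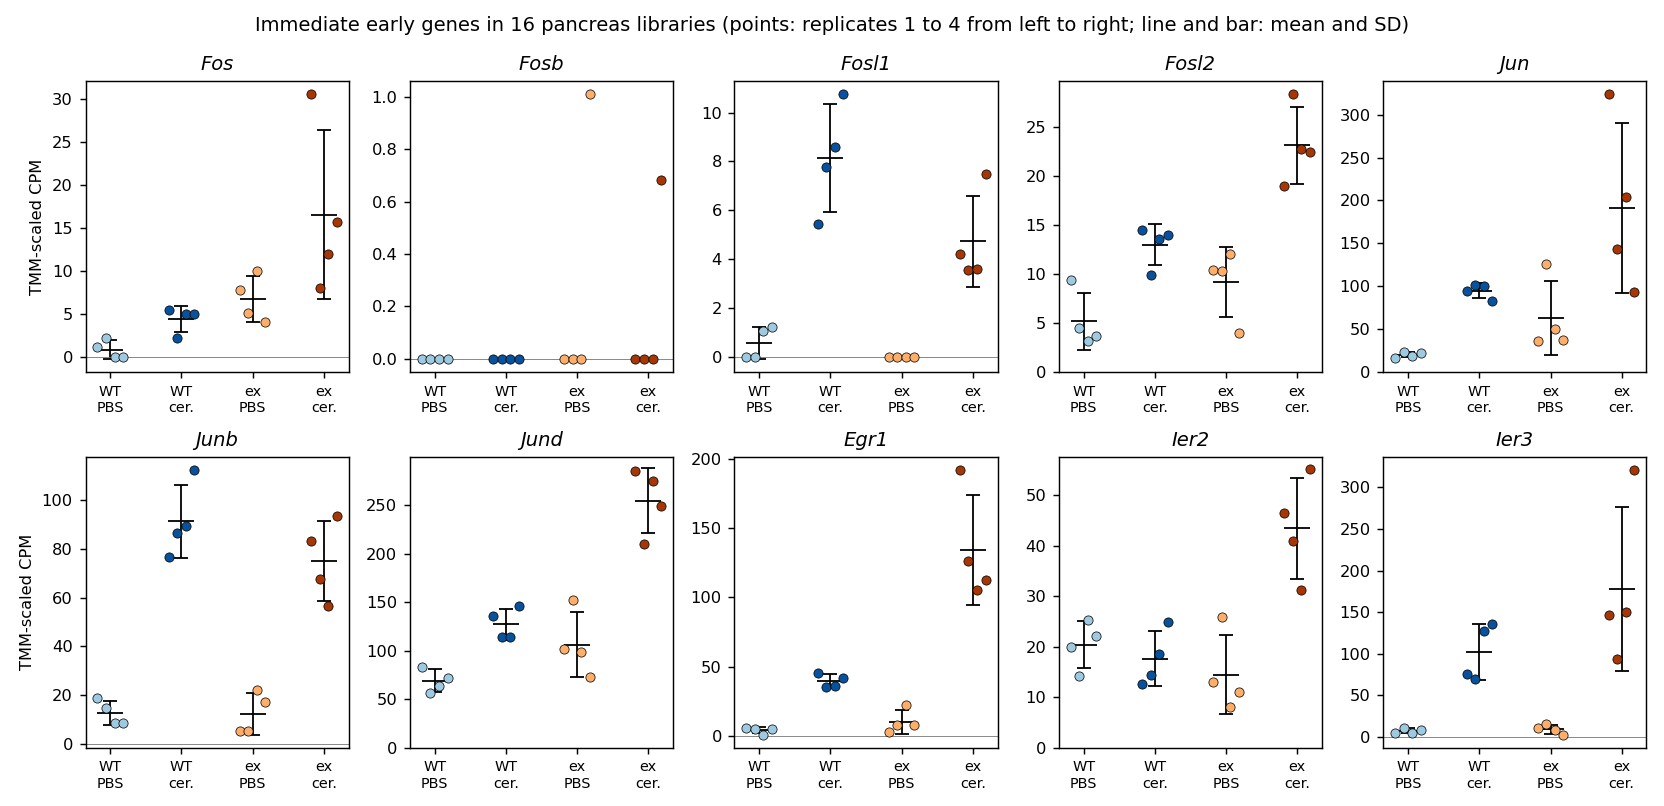
TMM-scaled CPM of the 10 genes in each library; the x axis gives the groups (cer., cerulein; ex, Adam17ex), points are replicates 1 to 4 from left to right, and horizontal lines with bars are the mean and SD (n = 4, not drawn for Fosb with its 2 counts). Egr1 lay at 35.4 to 45.2 CPM in WT cerulein and at 106 to 192 in Adam17ex cerulein, while Junb reached a similar range in both.

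Cerulein in WT mice raised all 3 JUN genes, Fosl2, Fos, Egr1 and Ier3, and no change was called for Ier2. Of the 8 tested members 7 rose and 0 fell, where 19.8% of all tested genes rose, 21.3% fell and 41.1% changed in either direction. The median log2 fold change of the 8 was 2.22, against -0.04 over all tested genes. Without Fos, 6 of 7 rose, among them Fosl2, Egr1 and Ier3 with the filter limit given above. In 6 of the 8 all 4 cerulein libraries lay above all 4 PBS libraries, which 19.2% of all tested genes did, while 20.2% lay all below. The exceptions were Fos and Ier2.

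Among the JUN genes, Junb, whose product is an AP-1 subunit that often restrains JUN, rose most. Its level was 18.8, 14.9, 8.40 and 8.58 CPM in WT PBS replicates 1 to 4 and 76.9, 86.4, 89.5 and 112 CPM in WT cerulein, a log2 change of 2.90 ± 0.28 with an edgeR adjusted p of 2.40e-08. Every cerulein library was well above the highest PBS library. Jun, the archetypal AP-1 subunit and a substrate of JNK, went from 16.5, 23.1, 18.9 and 22.1 CPM to 94.97, 102, 100 and 82.7 CPM. Both groups were tight, with a coefficient of variation of 15.04% and 9.17%, and the fitted log2 rise was 2.30 ± 0.36 (edgeR adjusted p = 2.69e-05). Jund, the JUN gene that is expressed in resting cells, went from 83.5, 56.6, 64.0 and 72.3 CPM to 136, 114, 114 and 146 CPM, a rise of 0.90 ± 0.21 on the log2 scale (edgeR adjusted p = 0.00116). The ranges did not overlap for any of the 3 genes, and Jund had both the highest PBS level of them and the smallest log2 rise.

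The FOS side was scarce in WT pancreas. Fos, the inducible partner of JUN, had 1, 3, 0 and 0 counts in WT PBS and 6, 2, 7 and 6 counts in WT cerulein, which is 0.852 ± 1.08 and 4.40 ± 1.47 CPM (SD, n = 4). The fitted log2 fold change was 2.13 ± 0.75 (edgeR adjusted p = 0.0266), and the ranges touched, since WT PBS replicate 2 had 2.23 CPM and WT cerulein replicate 2 had 2.22. The Fos call ended without WT PBS replicate 3 (1.82, adjusted p = 0.0674) or 4 (1.86, 0.0620), or without WT cerulein replicate 1 (1.98, 0.0566) or 3 (2.12, 0.0539). Fosl2, which encodes the FOS-related protein FRA-2, stood at 9.40, 4.47, 3.15 and 3.68 CPM with PBS and 14.5, 9.97, 13.6 and 14.05 CPM with cerulein. Its log2 fold change was 1.26 ± 0.37 (edgeR adjusted p = 0.00841), and WT PBS replicate 1 was the only PBS library near the cerulein range. That call ended when all libraries were thinned to equal depth (1.10, adjusted p = 0.256).

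Fosl1, which encodes FRA-1, a FOS-related protein linked to epithelial injury and invasion, was close to silent with PBS. It had 0, 0, 1 and 1 counts in WT PBS and 6, 7, 12 and 13 counts in WT cerulein. The ratio of the summed rates was 16.3, with an exact 95% interval of 4.22 to 140 that covers counting error only. Levels were 0.569 ± 0.661 and 8.13 ± 2.20 CPM (SD, n = 4), and an exact two-sided permutation test gave p = 0.0286, the smallest that 4 against 4 libraries can give. Over the 4 comparisons made for this gene the Benjamini-Hochberg value was 0.0571. Fosb was counted 0 times in the 8 WT libraries. Reads of Fosl1 and of the opposite-strand gene Ccdc85b (366 counts in all), which overlaps it, cannot be told apart unless the counting used strand, which is not given in the sources used here. The same holds for Junb with Prdx2 (588 counts), Jun with Junos (20) and Jund with Gm11175 (2), by the GENCODE M21 annotation. For Junb that annotation reaches down to chr8:84974484, while the deposited table ends the gene at chr8:84976910. Whether Prdx2 overlaps the shorter span was not tested.

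Egr1, whose product is a zinc finger activator downstream of ERK and serum response factor, and Ier3, whose product is a stress-induced regulator of survival and ERK signalling, had the steepest rises in WT among the 8 tested members. Egr1 stood at 5.88, 5.21, 1.05 and 4.90 CPM with PBS and 45.2, 35.4, 35.8 and 42.2 CPM with cerulein, a fitted log2 change of 3.18 ± 0.39 (edgeR adjusted p = 8.86e-07). Ier3 went from 4.70, 11.2, 5.25 and 8.58 CPM to 76.0, 69.8, 127 and 136 CPM, a fitted log2 change of 3.86 ± 0.37 (edgeR adjusted p = 2.77e-08). For both genes the lowest cerulein library was several times the highest PBS library. Ier2, which encodes a small nuclear protein induced by serum, behaved differently. It stood at 19.98, 14.2, 25.2 and 22.1 CPM with PBS and 12.7, 14.4, 18.6 and 24.8 CPM with cerulein, and its log2 fold change was -0.05 ± 0.27 (edgeR adjusted p = 0.954). The ranges overlapped widely, and the sign of that value changed in 6 of 28 alternative settings.

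Marker sums moved with cerulein as well. Duct markers (8 genes) went from 368 to 413 CPM in WT PBS to 1176 to 1456 CPM in WT cerulein. In Adam17ex they were 372 to 468 CPM with PBS and 518 to 580 with cerulein. Acinar markers (14 genes) ranged from 222200 to 302700 CPM in WT PBS and 144800 to 219300 in WT cerulein. B and plasma cell markers (7 genes) ranged from 24.1 to 978 CPM in WT PBS and 8.60 to 44.3 in WT cerulein, where Cd79a, Cd79b and Ms4a1 were at 0. Adipocyte markers (7 genes) ranged from 54.6 to 500 CPM in WT PBS and 38.7 to 67.6 in WT cerulein, where Plin1 and Lep were at 0. Of those tested, 5 of 5 were called lower in WT and 4 of 5 in Adam17ex, against 21.3% and 16.2% of all tested genes. In Adam17ex 7 of 8 islet, 4 of 5 fibroblast and 4 of 6 macrophage markers tested were called lower with cerulein, against the same 16.2%. Their part in the gene values was not tested.

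**Figure D2:**
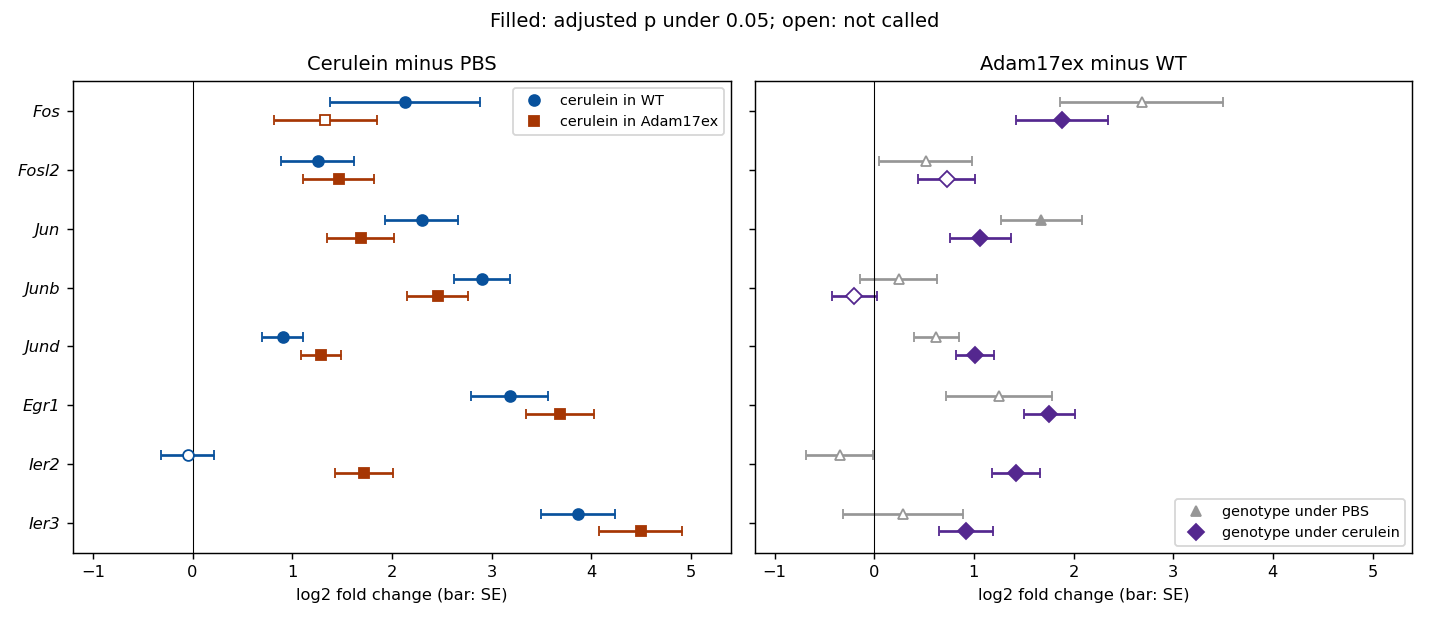
Log2 fold changes (x axis) with SE bars for the 8 tested genes (y axis); the left panel shows cerulein minus PBS in each genotype and the right panel Adam17ex minus WT under each treatment, filled symbols being called. Ier2 had -0.05 in WT and 1.72 in Adam17ex, and Junb -0.20 between genotypes under cerulein.

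In Adam17ex mice cerulein raised 7 of the 8 tested members and lowered 0, where 14.1% of all tested genes rose, 16.2% fell and 30.3% changed in either direction. This time Ier2 was among the risers, and Fos, whose value here is a description, was not called. The median log2 fold change was 1.70, against -0.03 over all tested genes, and without Fos all 7 rose. Those 7 include Fosl2, Egr1 and Ier3, with the filter limit given above. All 4 cerulein libraries lay above all 4 PBS libraries in 6 of the 8, against 13.8% of all tested genes (11.9% all below), and Fos and Jun were the exceptions. The PBS group here holds the 3 shallowest libraries, with 475952 UMIs in the middle one, so low genes rest on few counts there.

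Egr1 and Ier3 again led the tested members. Egr1 was 2.60, 7.75, 22.1 and 8.08 CPM in Adam17ex PBS replicates 1 to 4 and 192, 126, 106 and 112 CPM in Adam17ex cerulein (3.69 ± 0.34, edgeR adjusted p = 5.38e-08). Ier3 was 10.4, 15.5, 8.04 and 3.03 CPM with PBS and 147, 93.3, 150 and 321 CPM with cerulein (4.50 ± 0.41, edgeR adjusted p = 5.04e-08). Replicate 4 of the cerulein group had the highest Ier3 of all 16 libraries, and replicate 1 the highest Egr1. Ier2 was 13, 25.8, 8.04 and 11.1 CPM with PBS and 46.4, 40.9, 31.2 and 55.2 CPM with cerulein, a fitted log2 change of 1.72 ± 0.29 (edgeR adjusted p = 0.000126), and the ranges did not overlap.

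Of the JUN genes, Junb was 5.202, 5.16, 22.1 and 17.2 CPM with PBS and 83.3, 67.5, 56.4 and 93.3 CPM with cerulein (2.46 ± 0.31, edgeR adjusted p = 3.50e-06). The PBS values of replicates 1 and 2 rest on 2 counts each. Jund was 101, 152, 98.5 and 72.7 CPM with PBS and 285, 210, 275 and 249 CPM with cerulein (1.29 ± 0.20, edgeR adjusted p = 5.40e-05). Jun was 36.4, 127, 50.2 and 37.4 CPM with PBS and 324, 144, 204 and 93.3 CPM with cerulein (1.69 ± 0.34, edgeR adjusted p = 0.000627). PBS replicate 2 exceeded cerulein replicate 4 for Jun, so those groups overlapped, and the coefficient of variation was 68.7% and 51.9%, against 15.04% and 9.17% in WT.

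Of the FOS genes, Fosl2 was 10.4, 10.3, 12.05 and 4.04 CPM with PBS and 19.0, 28.4, 22.8 and 22.5 CPM with cerulein (1.47 ± 0.35, edgeR adjusted p = 0.00335). This call ended when libraries were thinned to equal depth (1.55, adjusted p = 0.0618). Fos was 7.80, 5.16, 10.05 and 4.04 CPM with PBS, from 3, 2, 5 and 4 counts, and 30.6, 8.00, 12.01 and 15.7 CPM with cerulein. Its log2 fold change of 1.33 ± 0.51 was not called and is a description, given the libraries that let it pass the filter. The value ran from 0.95 to 2.37 over 27 alternatives. It was 1.76 without Adam17ex PBS replicate 3 and 1.61 without Adam17ex cerulein replicate 2. Fosl1 was counted 0 times in the 4 PBS libraries and 4, 4, 3 and 11 times with cerulein. Setting the PBS group to 3 counts in all, the level was at least 3.79-fold higher with cerulein, and the exact 95% interval of the ratio for counting error began at 2.83. The exact two-sided permutation test gave p = 0.0286, the smallest possible, and a Benjamini-Hochberg value of 0.0571 over its 4 comparisons. Fosb had 1 count in each Adam17ex group.

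The size of the cerulein response differed between genotypes for 1 of the 8 tested members, Ier2, where 3.75% of all tested genes responded more in Adam17ex, 2.27% less and 6.02% differed in either direction. The difference for Ier2 was 1.77 ± 0.40 on the log2 scale (edgeR interaction, adjusted p = 0.0105). It was no longer called with females only (1.71, adjusted p = 0.134) or with libraries thinned to equal depth (1.16, adjusted p = 0.426). The other members had interaction values from -0.80 ± 0.90 for Fos to 0.63 ± 0.64 for Ier3, each within 2 SE of 0. For those genes a difference in response was not detected, and the SEs of 0.29 to 0.90 leave room for sizeable ones.

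**Figure D3:**
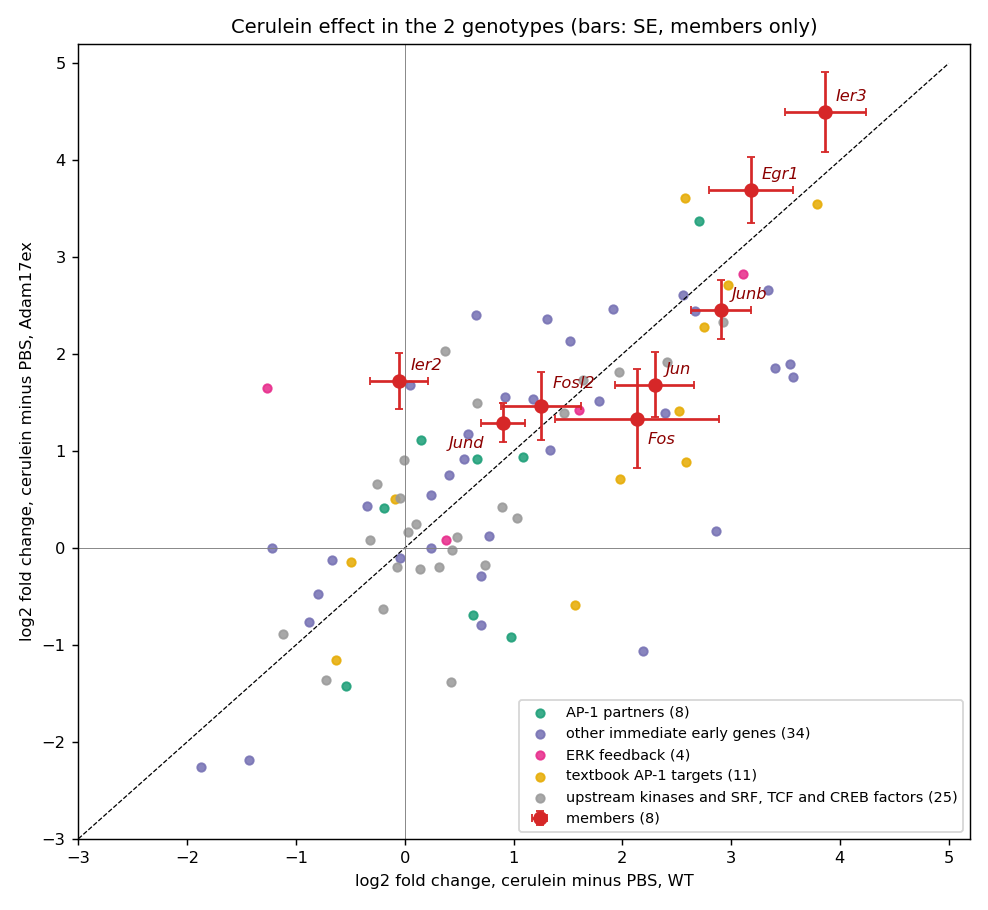
Log2 fold change with cerulein in WT (x axis) against that in Adam17ex (y axis) for the 8 tested members, with SE bars, and for the tested genes of 5 related lists (numbers in the legend); the dashed line marks equal effects. Ier2 stands off the line, at -0.05 and 1.72, and Ier3 is at the upper right, at 3.86 and 4.50.

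Under cerulein the mutant pancreas held more Jun, Jund, Egr1, Ier2 and Ier3 RNA than the WT pancreas, with no called difference in Junb or Fosl2. Of the 7 tested members other than Fos, 5 were higher in Adam17ex and 0 lower, and with Fos the count was 6 of 8, where 5.85% of all tested genes were higher, 3.85% lower and 9.7% differed in either direction. The median log2 difference of the 7 was 1.01, against 0.01 over all tested genes. In 4 of the 7 every Adam17ex library lay above every WT library (Fosl2, Jund, Egr1 and Ier2), which 9.64% of all tested genes did, while 7.92% lay all below. The comparison shares its cerulein libraries with both treatment comparisons.

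Egr1 differed most clearly, at 134 ± 39.6 CPM in Adam17ex against 39.7 ± 4.82 in WT (SD, n = 4), a log2 difference of 1.76 ± 0.25 (edgeR adjusted p = 5.95e-05). Ier2 stood at 43.4 ± 10.0 against 17.6 ± 5.401 CPM (1.42 ± 0.24, edgeR adjusted p = 0.000419), and Jund at 255 ± 33.5 against 127 ± 15.9 CPM (1.01 ± 0.19, edgeR adjusted p = 0.00132). The calls for Egr1 and Jund stood in all 28 alternatives, and that for Ier2 in 27, the exception being equal depth (1.44, adjusted p = 0.0711). Fos stood at 16.6 ± 9.86 against 4.40 ± 1.47 CPM, a fitted 1.88 ± 0.46 on the log2 scale. It was tested only because of its level in Adam17ex libraries, so the value is a description. Without Adam17ex cerulein replicate 1, the library with the highest Fos, it was 1.38.

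Jun and Ier3 had overlapping ranges and 1 high Adam17ex library each. Jun stood at 191 ± 99.3 against 94.95 ± 8.71 CPM (1.07 ± 0.31, edgeR adjusted p = 0.0283), with Adam17ex replicate 4 inside the WT range. Leaving out Adam17ex cerulein replicate 1 gave 0.59 (adjusted p = 0.281), and the call also ended without Adam17ex cerulein replicate 3 (0.98, 0.0678) or without WT cerulein replicate 1 (1.19, 0.0660), 2 (1.07, 0.0570), 3 (1.04, 0.0691) or 4 (0.97, 0.0809). It ended too with limma-voom (0.86, 0.0671), females only (1.11, 0.146) and equal depth (1.03, 0.0937). Ier3 stood at 178 ± 98.9 against 102 ± 34.0 CPM (0.92 ± 0.27, edgeR adjusted p = 0.0319). Leaving out Adam17ex cerulein replicate 4 gave 0.48 (adjusted p = 0.352). The Ier3 call also ended without Adam17ex cerulein replicate 3 (0.87, 0.0699) or WT cerulein replicate 1 (0.96, 0.104), 2 (0.76, 0.0986) or 3 (0.95, 0.0596), and with the replicate number as a block (0.84, 0.0577). It ended too with DESeq2 (0.88, 0.0755), no sex term (0.80, 0.0834), females only (1.08, 0.0926) and equal depth (1.04, 0.104).

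Junb had a fitted difference near 0. It stood at 75.2 ± 16.4 CPM in Adam17ex and 91.3 ± 15.1 in WT under cerulein, a log2 difference of -0.20 ± 0.22 (edgeR adjusted p = 0.644), negative in all 28 alternatives and called in none. Fosl2 was 23.2 ± 3.91 against 13.03 ± 2.07 CPM (0.73 ± 0.29, edgeR adjusted p = 0.118), not called although the ranges were apart. Fosl1 pointed the other way, with 22 counts in Adam17ex against 38 in WT and 4.72 ± 1.88 against 8.13 ± 2.20 CPM. The exact two-sided permutation p for Fosl1 was 0.0571, or 0.0762 adjusted over its 4 comparisons, and the ranges overlapped.

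Under PBS 1 of the 8 tested members differed between genotypes. Jun was higher in Adam17ex, at 62.6 ± 43.1 against 20.1 ± 3.03 CPM (1.68 ± 0.41, edgeR adjusted p = 0.0432), and its lowest Adam17ex library, at 36.4 CPM, was above the highest WT library, at 23.1. No other member was called higher and 0 were lower, where 0.631% of all tested genes were higher, 0.729% lower and 1.36% differed in either direction. All 4 Adam17ex libraries lay above all 4 WT libraries for Jun, 1 of the 7 tested members other than Fos. Over all tested genes 4.16% did so, while 6.24% lay all below. The same held for Fos, for which it is a description.

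The Jun call ended in 16 of 28 alternatives, including the fit without the 3 shallowest libraries (0.87, adjusted p = 0.681), which leaves 1 Adam17ex PBS library and assumes that it varies like the other groups. Without Adam17ex PBS replicate 2, the library at 127 CPM, the value was 1.07 (adjusted p = 0.239), and without replicate 3 it was 1.68 (0.0804). Without WT PBS replicate 1, 2, 3 or 4 it was 1.57 (0.0793), 1.74 (0.0645), 1.63 (0.0875) and 1.69 (0.0696). Without WT cerulein replicate 1, 2 or 3 it was 1.72 (0.0536), 1.67 (0.0547) and 1.66 (0.0560), and without Adam17ex cerulein replicate 2 or 3 it was 1.65 (0.0619) and 1.71 (0.0550).

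Fos under PBS had 14 counts in Adam17ex and 4 in WT, or 6.76 ± 2.70 against 0.852 ± 1.08 CPM. Its log2 difference of 2.68 ± 0.82 was not called and is a description, since Adam17ex libraries let it pass the filter. Without Adam17ex PBS replicate 4, the deepest of its group, it was 3.15. In that fit Jund was called (0.82, edgeR adjusted p = 0.0409), while with all libraries it had 0.62 ± 0.23 (edgeR adjusted p = 0.158). Egr1 had 1.25 ± 0.54 (edgeR adjusted p = 0.232) and Fosl2 0.52 ± 0.46 (0.628). Junb, Ier3 and Ier2 had 0.25 ± 0.39, 0.29 ± 0.60 and -0.35 ± 0.33. The ratio of summed Fos rates was 6.14, with an exact 95% interval of 1.93 to 25.6 for counting error. Fosl1 under PBS had 0 counts in Adam17ex and 2 in WT (exact two-sided permutation p = 0.429).

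Cell type markers also differed in level here, although 0 markers of any list were called, where 1.36% of all tested genes were. Summed fibroblast and stellate cell markers (8 genes) ranged from 427 to 1264 CPM in Adam17ex PBS and from 196 to 498 in WT PBS. Macrophage and monocyte markers (10 genes) ranged from 153 to 1079 CPM against 69.3 to 433, and endothelial markers (8 genes) from 103 to 193 against 64.0 to 74.8. Every marker of these 3 lists was counted in both groups. Adam17ex PBS replicate 3, which had the highest Egr1, Junb, Fos and Fosl2 of its group, also had the highest macrophage (1079 CPM) and fibroblast (1264 CPM) sums of the 16 libraries. Replicate 2, which had the highest Jun, had the highest islet sum of the study, 22090 CPM, against 5070 to 15610 in the rest of its group. The part of these cells in the gene values was not tested.

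Under cerulein, summed duct markers (8 genes) were 1176 to 1456 CPM in WT and 518 to 580 in Adam17ex, with 5 of 6 tested called lower and 1 higher. Acinar markers (14 genes) were 144800 to 219300 CPM in WT and 207700 to 264400 in Adam17ex, and 3 of the 14 were called higher. Over all tested genes 5.85% were called higher and 3.85% lower. Macrophage sums were 160 to 238 CPM in WT and 118 to 205 in Adam17ex, with 1 of 6 tested called lower. Neutrophil sums (5 of 8 listed genes in the table) were 0 to 14.4 and 2.67 to 26.4 CPM. Fibroblast and stellate sums (8 genes, each counted in both groups) were 197 to 291 CPM in WT and 304 to 459 in Adam17ex, ranges that did not overlap, with 0 of 5 tested called. Adipocyte sums (7 genes) were 38.7 to 67.6 CPM in WT, with Plin1 and Lep at 0, and 77.7 to 423 in Adam17ex, with Lep at 0. The part of these cells in the gene values was not tested.

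Ordered by group mean, Fosl2, Jun, Jund, Egr1 and Ier3 shared the sequence WT PBS, Adam17ex PBS, WT cerulein, Adam17ex cerulein. For Egr1 the neighbours were separate except the PBS groups. In Jund and Fosl2 the Adam17ex PBS group overlapped both WT groups, and in Ier3 the PBS groups overlapped each other, as did the cerulein groups. For Jun the PBS groups were separate, but Adam17ex PBS overlapped WT cerulein, which in turn overlapped Adam17ex cerulein. Junb and Fosl1 ran Adam17ex PBS, WT PBS, Adam17ex cerulein, WT cerulein, with a gap between treatments and overlap within them. Ier2 stood apart only in Adam17ex cerulein. Fos ran WT PBS, WT cerulein, Adam17ex PBS, Adam17ex cerulein, and each neighbouring pair overlapped.

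**Figure D4:**
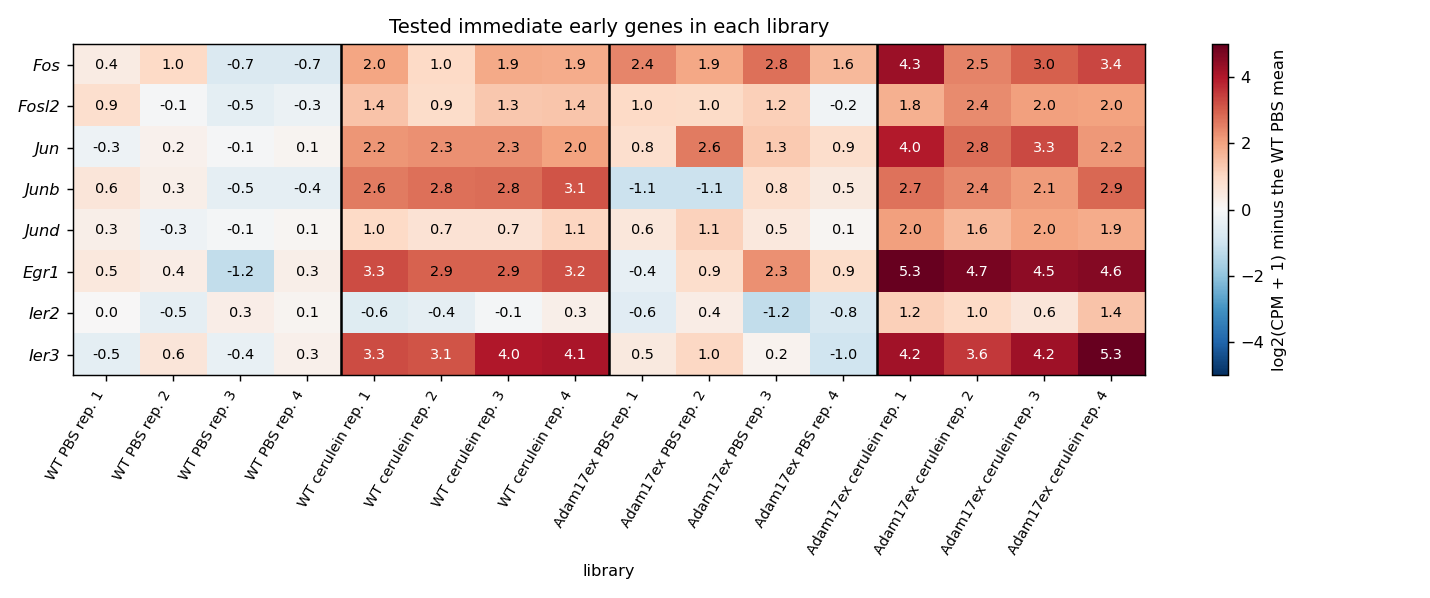
Log2(CPM + 1) of the 8 tested genes (rows) in the 16 libraries (columns), each minus the mean of the 4 WT PBS libraries; red is higher, blue lower, the scale saturates at 5, and the numbers are the plotted values. Egr1 reached 5.3 in Adam17ex cerulein replicate 1 and Ier3 5.3 in replicate 4.

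Libraries of 1 group did not hold the whole family up or down together. In Adam17ex cerulein, replicate 1 was highest for Fos, Jun, Jund and Egr1, whereas replicate 4 was highest for Junb, Ier2 and Ier3 and lowest for Jun. Replicate 4 had 321 CPM of Ier3 and 93.3 of Jun, and replicate 1 had 147 and 324. Within WT cerulein, replicate 4 was highest for Junb, Jund, Ier2 and Ier3 and lowest for Jun. In Adam17ex PBS, replicate 2 was highest for Jun, Jund, Ier2 and Ier3, and replicate 3 for Fos, Fosl2, Junb and Egr1. These are single libraries, so the pattern is a description.

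Likeness between genes was measured as the root mean square difference of log2 CPM over the 16 libraries after centring each gene on its mean, so 0 is an identical profile. The points share their libraries and depth. The measure is not scaled by a gene's own spread, so genes that vary little lie closer to others. Over the 16 libraries the SD of log2 CPM ran from 0.707 for Ier2 to 2.01 for Ier3 among the tested members. Within the family the closest pair was Fosl2 and Jund, at 0.32, and the farthest Ier2 and Ier3, at 1.63. Of 6370 other genes, the nearest to Jund was Cebpb, which encodes a bZIP factor of injury responses, at 0.22. Ets2, an ETS factor gene, was nearest to Fosl2 at 0.35, and Atf3, a stress-induced bZIP gene whose product can pair with JUN, was nearest to Egr1 at 0.63. Trib1, a pseudokinase gene, was nearest to Jun at 0.51, and the cyclin gene Ccnl1 nearest to Fos at 0.55. The actin-binding tropomyosin gene Tpm4 was nearest to Junb at 0.38, Ralgds, a Ral exchange factor gene, nearest to Ier3 at 0.60, and the glycosyltransferase gene Galnt3 nearest to Ier2 at 0.32.

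The partners that can pair with FOS and JUN were examined as a list of 13 genes, of which 8 were tested. With cerulein 2 rose and 0 fell in WT, and 3 rose and 1 fell in Adam17ex, with medians of 0.64 and 0.66 against -0.04 and -0.03 over all tested genes. Over all tested genes 19.8% rose and 21.3% fell in WT, and 14.1% and 16.2% in Adam17ex, so the 25.0% called in WT was below the 41.1% of all genes. Atf3 rose by 2.71 ± 0.46 in WT and 3.37 ± 0.45 in Adam17ex, and was higher in Adam17ex under cerulein by 1.18 ± 0.29 (edgeR adjusted p = 0.0114). Mafg, which encodes a small MAF partner of bZIP factors, rose by 1.08 ± 0.29 and 0.93 ± 0.30. Atf4, the effector of the integrated stress response, rose in Adam17ex by 1.11 ± 0.20 and had 0.15 ± 0.20 in WT, a difference of 0.96 ± 0.29 (edgeR interaction, adjusted p = 0.0468). Maf fell by 1.42 on the log2 scale in Adam17ex. Between genotypes under cerulein, Atf3 and Atf4 were higher and 0 were lower. That is 25.0% of the 8 higher, where 5.85% of all tested genes were higher and 3.85% lower.

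Other immediate early genes formed a list of 48 names, 45 of them in the table and 34 tested. In WT 17 rose and 3 fell with cerulein (median 0.74), and in Adam17ex 18 rose and 4 fell (median 0.96). That is 58.8% and 64.7% called, against 41.1% and 30.3% of all tested genes. Btg2, an antiproliferative gene, rose by 2.67 ± 0.21 and 2.44 ± 0.21, Gadd45b, a stress sensor of p38 signalling, by 3.34 ± 0.30 and 2.67 ± 0.32, and Phlda1, a pleckstrin homology-like domain gene, by 3.40 ± 0.30 and 1.86 ± 0.31. Klf6, a zinc finger factor gene, rose by 1.51 ± 0.25 and 2.13 ± 0.24. Plk2, a polo-like kinase gene, fell in both, with -1.88 ± 0.28 and -2.26 ± 0.30. The list was not uniform in direction.

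Between genotypes under cerulein 8 of the 34 were higher in Adam17ex and 2 lower (median 0.43, against 0.01 over all tested genes). That is 23.5% higher and 5.88% lower, against 5.85% and 3.85% of all tested genes. Klf6 was higher by 1.66 ± 0.23 (edgeR adjusted p = 3.16e-05) and Zfp36l1, which encodes an mRNA decay factor for AU-rich messages, by 1.33 ± 0.19 (edgeR adjusted p = 5.83e-05). Btg2 and Gadd45b had 0.26 ± 0.19 and -0.10 ± 0.22 and were not called. The interaction was called for 3 of the 34, a share of 8.82% near the 6.02% of all tested genes. Zfp36l1 responded more in Adam17ex (1.76 ± 0.29, edgeR adjusted p = 0.000872), and Errfi1 and Gadd45g, named after their values were seen, had interaction values of -2.69 ± 0.43 and -3.25 ± 0.42. Errfi1, which encodes a feedback inhibitor of the EGF receptor, rose by 2.86 ± 0.29 in WT and had 0.17 ± 0.30 in Adam17ex. Gadd45g rose by 2.19 ± 0.27 in WT and fell in Adam17ex, with -1.06 ± 0.32. Under PBS Sgk1 and Id1, also named after their values were seen, were higher in Adam17ex by 1.24 ± 0.26 and 2.01 ± 0.47.

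Upstream, 25 of 32 listed names of MAP kinase pathway members and of SRF, TCF and CREB factors were tested. With cerulein 8 rose and 1 fell in WT and 8 rose and 3 fell in Adam17ex. The 36.0% called in WT was below the 41.1% of all tested genes, and the 44.0% in Adam17ex compares with 30.3%. Map2k3, the kinase upstream of p38, rose by 2.93 ± 0.22 and 2.33 ± 0.24, and Mapkapk2, the kinase downstream of p38, by 1.97 ± 0.20 and 1.82 ± 0.21. Crem, a cyclic AMP response factor gene, rose by 2.41 ± 0.35 and 1.92 ± 0.38. Rps6ka3, which encodes an ERK-activated kinase, rose by 0.66 ± 0.23 and 1.49 ± 0.26. Under cerulein 1 of the 25 was higher in Adam17ex and 2 were lower, a share near the 9.7% of all tested genes. Map3k5, which encodes the stress kinase ASK1 and was named after its value was seen, was higher by 1.50 ± 0.25, and Map2k3 and Map2k4 had -0.59 ± 0.18 and -1.03 ± 0.27. These are RNA levels and carry no information on kinase activity.

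Genes listed as ERK feedback, which include phosphatases of other MAP kinases, were mostly too low to test. Of the 13, 4 passed the filter, too few to read against the share of all genes. Dusp5, which encodes a nuclear ERK phosphatase, rose by 3.11 ± 0.49 in WT and 2.83 ± 0.52 in Adam17ex, and Dusp16 by 1.60 ± 0.30 and 1.43 ± 0.29. Dusp8, which like Dusp16 encodes a phosphatase of JNK and p38 rather than one of ERK, moved in opposite directions. It fell with -1.27 ± 0.45 in WT and rose by 1.65 ± 0.38 in Adam17ex, a difference of 2.92 ± 0.58 (edgeR interaction, adjusted p = 0.00410). Dusp16 and Dusp8 were also higher in Adam17ex under cerulein, by 0.83 ± 0.25 and 2.84 ± 0.38. Spred1 had 0.38 ± 0.30 and 0.08 ± 0.32 and was not called.

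Of 23 textbook AP-1 target genes 11 were tested. In WT 8 rose and 1 fell with cerulein (median 2.52), and in Adam17ex 4 rose and 1 fell (median 0.89). Risers were 72.7% and 36.4% of the list, against 19.8% and 14.1% of all tested genes. Sphk1, a sphingosine kinase gene, rose by 2.98 ± 0.43 and 2.72 ± 0.46, the hyaluronan receptor gene Cd44 by 2.75 ± 0.37 and 2.28 ± 0.44, and the matrix metalloproteinase gene Mmp3 by 2.58 ± 0.56 and 3.61 ± 0.76. Lif, an IL-6 family cytokine gene, was called in both and had 1 count in WT PBS against 22 with cerulein, and 3 against 75 in Adam17ex. With so few counts elsewhere it passed the count filter only through its Adam17ex cerulein libraries. Its differences from that group are therefore descriptions, and the counts of targets include it. The ratios of its summed rates were 18.9 (3.05 to 780) and 12.9 (4.25 to 64.0), intervals being exact 95% for counting error. Ccnd1 (cyclin D1) fell with -0.63 ± 0.23 and -1.16 ± 0.23. The chemokine gene Ccl2 rose by 2.52 ± 0.59 in WT and had 1.42 ± 0.81 in Adam17ex (edgeR adjusted p = 0.193).

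Between genotypes under cerulein 2 of the 11 targets, Lif among them, were higher in Adam17ex and 1 was lower. The median was 0.15, against 0.01 over all tested genes. That is 18.2% higher and 9.09% lower, against 5.85% and 3.85% of all tested genes. Lif, tested only because of its level in Adam17ex cerulein, was higher by 1.85 ± 0.51, which is a description. Vegfa, named after its value was seen, was higher by 1.54 ± 0.21. Spp1 (osteopontin), also named after its value was seen and also on the duct marker list, was lower, with -1.78 ± 0.22, and was the 1 target with a called interaction (-2.15 ± 0.32). Sphk1, Cd44 and Mmp3 had 0.34 ± 0.30, -0.33 ± 0.30 and 0.20 ± 0.42 and were not called.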

How the data were processed

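The table deposited by the authors holds counts of unique molecular identifiers per gene, not normalized, for 24019 genes in 16 libraries. Per the labels' protocols, libraries were primed at the poly(A) tail with a 10 bp UMI, so reads lie near 3′ ends. The submitters' processing notes list GRCm38 and mm10 as builds, with R 4.1.2, edgeR 3.36.0 and limma 3.50.0. The sources used here do not give an aligner, a counting tool or a strand setting.

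Counts were fitted with edgeR 4.0.16 (R 4.3.3): filterByExpr with a minimum count of 10, TMM scaling, group means plus sex, a quasi-likelihood test with 11 residual degrees of freedom, and Benjamini-Hochberg adjustment over 8236 genes at 0.05. The fit was tested on simulated data with 7721 to 7852 genes tested: in the order cerulein in WT, cerulein in Adam17ex, genotype under cerulein, genotype under PBS and interaction, it called 90, 90, 92, 86 and 72 of 100 genes changed 4-fold and 50, 53, 38, 37 and 16 of 100 changed 2-fold, with 4 to 6 false calls. The simulated counts had equal group means apart from the changed genes and no sex effect. Their spread followed abundance alone, so these rates need not hold for the real data. Alternatives used DESeq2 1.42.0, limma-voom from limma 3.58.1, other filters and scalings, thinned counts, females only and left-out libraries. Members and gene lists were chosen with earlier results of these data known. All members were named in every comparison, with the nearest gene of 3 per member and up to 6 genes per list, those with the smallest p over the mean cerulein effect. For likeness, log2 CPM used a prior count of 2 and genes with a mean count of at least 10. Fosl1, below the filter, was tested by exact permutation. No library pair of 24 within groups agreed within sampling noise (chi-square per degree of freedom 3.79 to 13.1). The labels also carry a code whose meaning they do not give. It was not used.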

Additional observations from a re-analysis of the deposited data

Results flagged for a closer look

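Of 37 groups of 4 values screened, 5 had 1 library that stood apart from the rest by Dixon's test at the 95% level, which chance alone gives in about 1 in 20 groups. For 2 of the 5, both Fosb, the result was fixed by a single count beside 3 libraries at 0, so they say nothing against that rate. Jun in Adam17ex PBS replicate 2 was 126.5 CPM, with the others at 36.4 to 50.2 CPM. Fos in WT cerulein replicate 2 was 2.22 CPM, below the rest of its group. Fosl1 in Adam17ex cerulein replicate 4 was 7.49 CPM, with the others at 3.56 to 4.22 CPM. Fosb was 1.01 CPM in Adam17ex PBS replicate 4 and 0.681 CPM in Adam17ex cerulein replicate 4, 1 count each, and 0 in the other libraries of those groups. A different kind of signal was that the cerulein effect on Ier2 was larger in Adam17ex than in WT by 1.77 on the log2 scale (edgeR interaction, adjusted p = 0.0105).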

How the results depend on the processing

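Of 40 member results, 19 kept direction and call in all of up to 28 alternatives. Leaving out each library gave 6 to 7 called members for cerulein in WT, 7 to 8 in Adam17ex, 4 to 6 for genotype under cerulein, 0 to 3 for genotype under PBS and 1 for the interaction. The counts include Fos, whose differences that involve an Adam17ex group are descriptions. Genotype under cerulein fell to 2 called of 7 tested with libraries thinned to equal depth. Genotype under PBS gave 2 with no filter and 0 with limma-voom, only the 2 groups compared, without the 3 shallowest libraries, with females only and with thinning. The interaction gave 0 with females only and 0 with thinning. Thinning leaves fewer counts per gene, and the other causes were not tested.

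Signs turned only in values that were not called. For cerulein in WT, Ier2 was 0.27 thinned and -0.20 to 0.12 leaving out each library. For genotype under PBS, Ier3 was -0.091 with limma-voom, -1.32 without the shallowest libraries, -0.18 with females only and -0.0058 to 0.97 leaving out each library. Fosl2 was -0.33 without the shallowest libraries, Junb -0.088 to 0.52 leaving out each library, and Ier2 0.27 thinned. For the interaction, leaving out each library gave -0.031 to 0.91 for Ier3 and -0.18 to 0.39 for Fosl2. Without the shallowest libraries Fos was 0.068 and Jun 0.17, and with females only Fos was 0.38.

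The replicate numbers did not pair the libraries: same-numbered libraries had correlations of deviations from -0.224 to 0.241, with 5 of 24 over 0.1, and 6 of 16 correlated best with their own number. With the replicate block the called members were 7, 7, 5, 1 and 1 in the order above. Over all genes, the genotype under PBS count of 112 was 331 with no filter, 232 with DESeq2, 230 with the block, 406 without the sex term, 22 with females only, 15 without the 3 shallowest libraries, 14 with only the 2 groups compared and 9 with thinning. Thinning gave 1546, 1020, 237 and 135 in the other comparisons, where the full counts gave 3388, 2493, 799 and 496. Females only gave 1422, 273 and 82 for the last 3, and omitting the 3 shallowest libraries gave 1360 for cerulein in Adam17ex and 152 for the interaction. Leaving out each library gave 402 to 913 for genotype under cerulein, 30 to 370 for genotype under PBS and 239 to 624 for the interaction. Adjusted p was absent for 3 DESeq2 values. Depth left Fosb and Fosl1 below the count filter.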
